A study of Mus musculus with 6 samples.

Results

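Mouse chromosome 12 carries Jag2, the Notch ligand gene that was targeted in these tumour cells, and its expressed genes were followed in order of position to see whether a lower RNA level in the targeted cells ran along the whole chromosome or lay in segments. Genes were kept when they lie on chromosome 12 of GRCm38 and their mean level over the 6 libraries was at least 2 CPM (counts over the library total, on the usual per-million scale). This left 407 of the 2468 chromosome 12 rows, of 55334 rows in all, and all 407 entered the test of differential expression. The chromosome was chosen by the log2 fold changes of these same libraries, which earlier results showed to be lower there, so its totals are given as a description and nothing is read from them. Of the genes, 374 are annotated as protein-coding.

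The cells were of the Lewis lung carcinoma line (LLC), a mouse lung cancer line, and carried green fluorescent protein (GFP). One group carried a Scramble guide RNA and the other an sgRNA for Jag2 (JAG2KO); both were grown in the flanks of mice and collected at the study's endpoint. The tumours were dissociated with Liberase, and GFP-positive, CD45-negative, DAPI-negative cells were sorted into lysis buffer for polyA RNA sequencing, with 3 libraries per group. The labels name neither the mouse strain and age nor whether the edited cells were 1 clone or a pool. Nor do they tie each library to its own mouse, and p-values here reflect the spread among these 6 libraries alone, part of which may be technical.

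Library totals ran from 37036772 to 43923565 counts, and mitochondrial genes held 0.355% to 0.476% of them. Of 10 lung epithelium markers, Nkx2-1 and Sftpb had no count in any library; the summed level of the list was 392 to 403 CPM in Scramble and 285.1 to 340.3 CPM in JAG2KO, with 0 of 6 tested markers higher and 2 lower. Krt8 fell from a mean of 123.8 to 4.13 CPM, while Krt18, the largest of the list, had 267.5 and 306.5 CPM and did not pass. For other cells the sort could hold, leukocyte and macrophage markers summed to 63.1 to 72.4 CPM in Scramble and 96.6 to 116.3 CPM in JAG2KO, endothelial markers to 23.6 to 27.4 and 41.3 to 58.1 CPM, and fibroblast and pericyte markers to 4854 to 4931 and 6186 to 9761 CPM. Higher and lower calls were 4 and 1 of 12, 6 and 0 of 9, and 6 and 1 of 10, against 11.8% higher and 12.5% lower among all tested genes. Col3a1 made up most of the fibroblast and pericyte sum, which without it was 1184 to 1344 CPM in Scramble and 1528 to 2545 CPM in JAG2KO, and Fap of that list was 5.27-fold lower in JAG2KO. The part of these cells in the differences on chromosome 12 was not tested. In a bulk sample, fewer cells of a type and less RNA per cell cannot be told apart.

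A chromosome is not a functional unit: most neighbouring genes have their own promoters and unrelated roles, and only some stretches share control. On mouse chromosome 12 such stretches include the imprinted Dlk1-Dio3 domain, whose noncoding RNAs are made from the maternal copy, a cluster of serpin protease inhibitor genes, and the immunoglobulin heavy chain locus near the distal end. Neighbouring genes can also share a level because they share the number of DNA copies of their stretch, which often varies along the chromosomes of cancer lines. DNA was not analysed here.

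The promoters of 4 genes are shown because the account turns on these genes. Eif2b2 had the smallest p-value of the segment with the lowest levels. Egln3 opened another run of lower genes, and Rsad2 and Cmpk2 are neighbours that fell together. The sequences are RefSeq's, on GRCm38.p6, from 250 bases before to 50 bases after the annotated start; 334 of the 407 genes had such an entry. They are read 5′ to 3′ on the gene's own strand, at chr12:85219231-85219530 (plus strand) for Eif2b2, chr12:54203825-54204124 (minus) for Egln3, chr12:26456403-26456702 (minus) for Rsad2 and chr12:26468965-26469264 (plus) for Cmpk2. Capitals mark a match, on either strand, to ACGTG, the core motif bound by hypoxia-inducible factors, in the first 2 and to GAAANNGAAA, a motif of interferon-responsive promoters, in the other 2.
Eif2b2: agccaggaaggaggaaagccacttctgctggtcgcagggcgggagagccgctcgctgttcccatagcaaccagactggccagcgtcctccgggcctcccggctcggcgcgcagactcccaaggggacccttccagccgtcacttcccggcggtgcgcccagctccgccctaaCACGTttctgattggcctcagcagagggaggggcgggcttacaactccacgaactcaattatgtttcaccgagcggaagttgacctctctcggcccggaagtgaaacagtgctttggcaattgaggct
Egln3: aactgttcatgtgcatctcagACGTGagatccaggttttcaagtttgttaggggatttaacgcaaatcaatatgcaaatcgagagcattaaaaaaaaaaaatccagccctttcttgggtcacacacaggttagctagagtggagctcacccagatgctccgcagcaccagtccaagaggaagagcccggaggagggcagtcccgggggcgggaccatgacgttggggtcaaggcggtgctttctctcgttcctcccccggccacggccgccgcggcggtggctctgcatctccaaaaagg
Rsad2: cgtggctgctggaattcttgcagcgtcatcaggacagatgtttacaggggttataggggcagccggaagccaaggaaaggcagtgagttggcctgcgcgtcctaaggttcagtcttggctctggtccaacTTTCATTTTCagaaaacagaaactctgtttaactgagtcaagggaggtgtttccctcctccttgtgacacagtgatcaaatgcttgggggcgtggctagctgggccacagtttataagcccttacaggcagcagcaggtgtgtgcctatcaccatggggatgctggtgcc
Cmpk2: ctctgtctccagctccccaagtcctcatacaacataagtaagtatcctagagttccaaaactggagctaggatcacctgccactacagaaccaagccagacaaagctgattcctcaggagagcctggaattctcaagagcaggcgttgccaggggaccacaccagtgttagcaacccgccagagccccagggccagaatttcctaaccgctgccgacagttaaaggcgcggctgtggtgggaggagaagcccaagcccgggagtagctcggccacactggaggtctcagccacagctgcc
The ACGTG match lies 78 bases before the start in Eif2b2, on the opposite strand, and 229 bases before it in Egln3. The GAAANNGAAA match of Rsad2 lies 120 bases before its start on the opposite strand, and the Cmpk2 window holds 0 matches. ACGTG was found in 5315 of 27025 promoters (19.67%) and in 82 of the 334 matched chromosome 12 genes (24.55%). GAAANNGAAA was found in 943 promoters (3.489%) and in 10 of the 334 (2.994%). The 334 genes had at least 2 CPM, a limit not put on the 27025 promoters, so nothing is read from these shares. A match is a run of letters and not a shown binding site.

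Across the chromosome, 133 genes were lower in JAG2KO, 30 were higher and 244 did not pass the edgeR threshold of an adjusted p of 0.05. Among all tested genes with a mean of at least 2 CPM, 29.8% were called, 15.5% lower and 14.3% higher (12.5% and 11.8% of all tested genes). On chromosome 12 these shares were 32.68% and 7.371%. The count of lower genes dropped to 84 without Scramble replicate 1 and to 83 without Scramble replicate 2, and 68 of the lower and 21 of the higher genes were called under every alternative setting that tested them. Most differences were small. Of the lower genes, 92 had a log2 fold change above -0.5, 29 lay between -1 and -0.5, and 12 were at least 2-fold lower; 9 genes were at least 2-fold higher.

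Most of the 407 values lay below 0. The median log2 fold change over the 407 genes was -0.16, a ratio of JAG2KO to Scramble of 0.892, and the interquartile range lay between -0.34 and 0.005. The value was negative in 302 genes and positive in 105, and the median over the 11089 genes outside the chromosome was -0.0025. In each library the median of the genes' log2 CPM relative to the 6-library mean was 0.09, 0.10 and 0.06 in Scramble replicates 1, 2 and 3 and -0.04, -0.10 and -0.09 in JagKO2, JagKO3 and JagKO4, as the JAG2KO columns are named. All 3 JAG2KO libraries were thus below all 3 Scramble libraries. Over the 9 pairs of a JAG2KO and a Scramble library, the median difference ran from -0.20 to -0.11, against at most 0.06 in size between libraries of 1 group. Gene by gene, the CPM of all JAG2KO libraries lay below all Scramble libraries in 171 genes (42.01%; 24.7% of all tested genes with at least 2 CPM) and above them in 45 (11.06%; 21.8%), and overlapped in 191.

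Other chromosomes were also off centre, in both directions. The X chromosome had a median of -0.18 with 92 of 332 genes lower and chromosome 19 a median of -0.15 with 129 of 418 lower, whereas on chromosome 3 the median was 0.17 and 189 of 581 genes were higher. Chromosome 6 had 168 of 562 genes lower and 86 higher, with a median of -0.07. The shares called on chromosome 12 are set beside those of each chromosome in the plot of calls per chromosome.

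**Figure D1:**
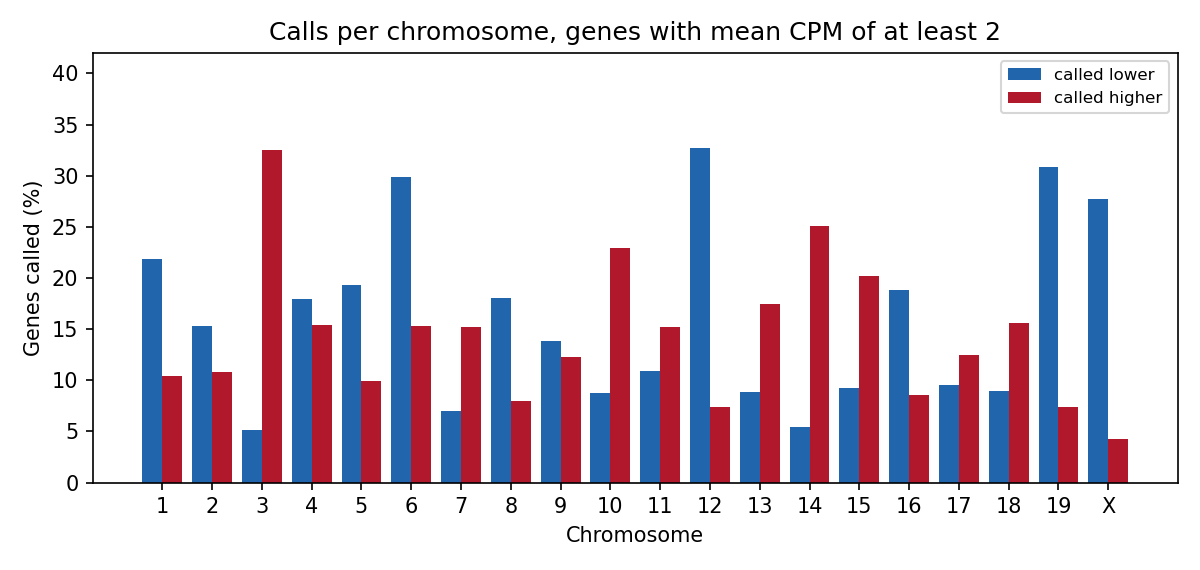
Share of genes with a mean of at least 2 CPM that edgeR called lower (blue) or higher (red) in JAG2KO, in percent, for each chromosome. Chromosome 12 has 32.68% lower and 7.371% higher. Chromosomes 19 and X have a like excess of lower genes, chromosome 6 has 29.89% lower and 15.3% higher, and chromosome 3 has 32.53% higher.

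The median difference was below 0 at every level of expression. Among 92 genes of 2 to 10 CPM, 14 were lower and 10 higher, with a median of -0.11. Of the 170 genes of 10 to 50 CPM 53 were lower and 15 higher (median -0.15), of the 109 genes of 50 to 200 CPM 55 were lower and 3 higher (median -0.21), and of the 36 genes above that 11 were lower and 2 higher (median -0.14).

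Along the chromosome the difference was wide but uneven. In bins of 10 Mb, 11 of the 12 medians were below 0. The first 50 Mb held 105 genes with a median ratio of 0.952, 22 of them lower and 14 higher, and the fifth bin, from 40 to 50 Mb, had a median of 0.04 with 2 of 13 genes lower and 4 higher. From 50 Mb on, 302 genes had a median ratio of 0.87, with 111 lower and 16 higher. The lowest bins were 50 to 60 Mb (median log2 fold change -0.26, 18 of 37 genes lower), 80 to 90 Mb (-0.27, 26 of 67 lower) and 100 to 110 Mb (-0.25, 23 of 49 lower). Between them, the bins of 60 to 70 Mb and 70 to 80 Mb had medians of -0.08 and -0.10. The last 8 genes of the chromosome had a median of -0.01, with 1 of them lower.

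**Figure D2:**
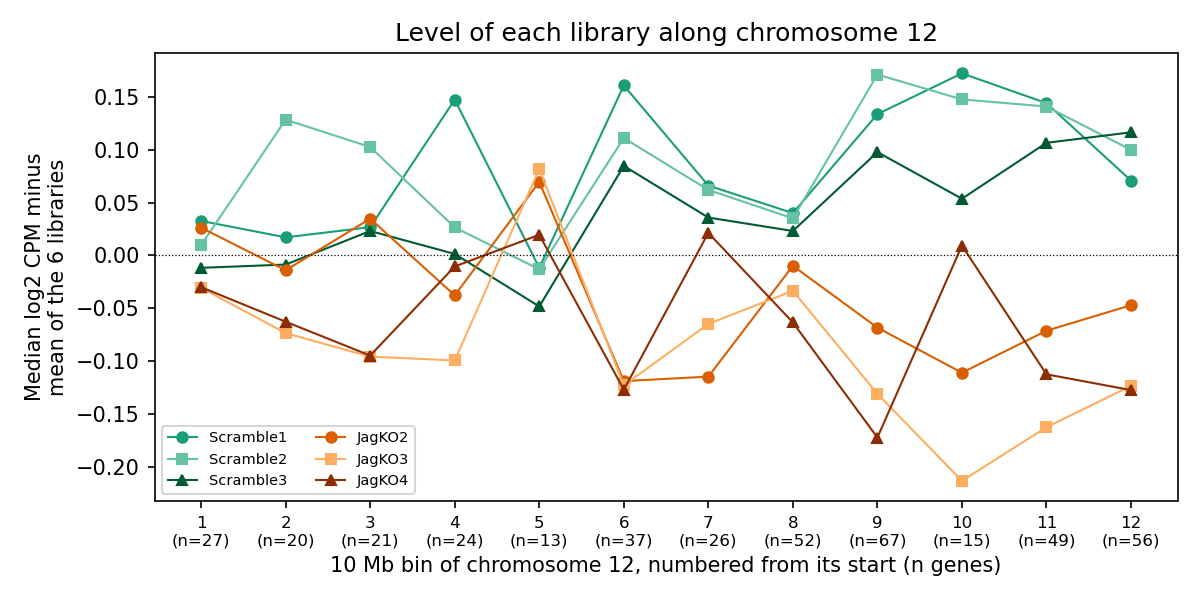
Median over the genes of each 10 Mb bin of a library's log2 CPM minus the mean of the 6 libraries (vertical axis), by bin number from the start of chromosome 12 (horizontal axis), 1 line per library. Scramble libraries (green) lie above JAG2KO libraries (orange) in bins 6 to 12, and the fifth bin, of 13 genes, has the reverse order.

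Running windows of 15 consecutive genes gave the same picture at finer scale. The median was below 0 in 388 of 393 windows (98.73%). The highest was 0.02, and the lowest was -0.46, in 3 overlapping windows that begin at Isca2, Ltbp2 and Arel1. With windows of 31 genes, all 377 medians were below 0, from -0.34 to -0.02. Runs of at least 10 consecutive genes with a negative log2 fold change were 23 genes from Arel1 to Pomt2 (12 called lower), 12 from Egln3 to Psma6 (7 called lower), 10 from Prps1l3 to Gm527 (6), 10 from Ppp4r3a to Itpk1 (5) and 10 from Glrx5 to Hhipl1 (9).

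A least-squares partition of the ordered log2 fold changes, limited to -1 to 1, placed 2 boundaries and so 3 segments. Since it was drawn from the values, no test is given for it. The first segment ran from Rab10os to Ltbp2 (3.2 to 84.9 Mb) and held 256 genes, 67 lower and 23 higher, with a median ratio of 0.925. The second was short, from Arel1 to Angel1 (84918148 to 86726460, 1.8 Mb), with 19 genes, 12 lower and 0 higher, and a median ratio of 0.726. The third ran from Gm10095 to Sp4 (86.8 to 118.3 Mb), with 132 genes, 54 lower and 7 higher, and a median ratio of 0.856. The 67 lower calls of the first segment dropped to 36 without Scramble replicate 1, 36 without Scramble replicate 2 and 42 without JagKO4.

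Both boundaries depended on the penalty, and the Arel1 to Angel1 stretch returned, with or without 1 more gene, at every setting tried except a doubled penalty. Doubling the penalty on added segments left the chromosome whole. Without the limit on the fold changes there were 5 segments, the added one being Glrx5 to Hhipl1 (105.0 to 108.3 Mb, 10 genes, 9 lower, median ratio 0.749). Without JagKO4 there were also 5, with Egln3 to Klhdc1 (54.2 to 69.3 Mb, 42 genes) set apart from the rest of the first segment. In the fit on all 6 libraries, 17 of these 42 genes were lower, with a median ratio of 0.829. With at least 20 genes per segment, the middle segment took in Gm10095, and leaving out any other library returned the same 3 segments. The same procedure parted 15 of the 19 other chromosomes into more than 1 segment. On 1 of them, chromosome 5, the lowest segment median was at or below the -0.46 of chromosome 12. There it was far lower, at -1.72 over 13 genes, all negative. Others came near the chromosome 12 value. The lowest segment of chromosome 16 had 10 genes, all negative, with a median of -0.41. Those of chromosomes 4 and 6 had medians of -0.39 over 114 and 69 genes.

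**Figure D3:**
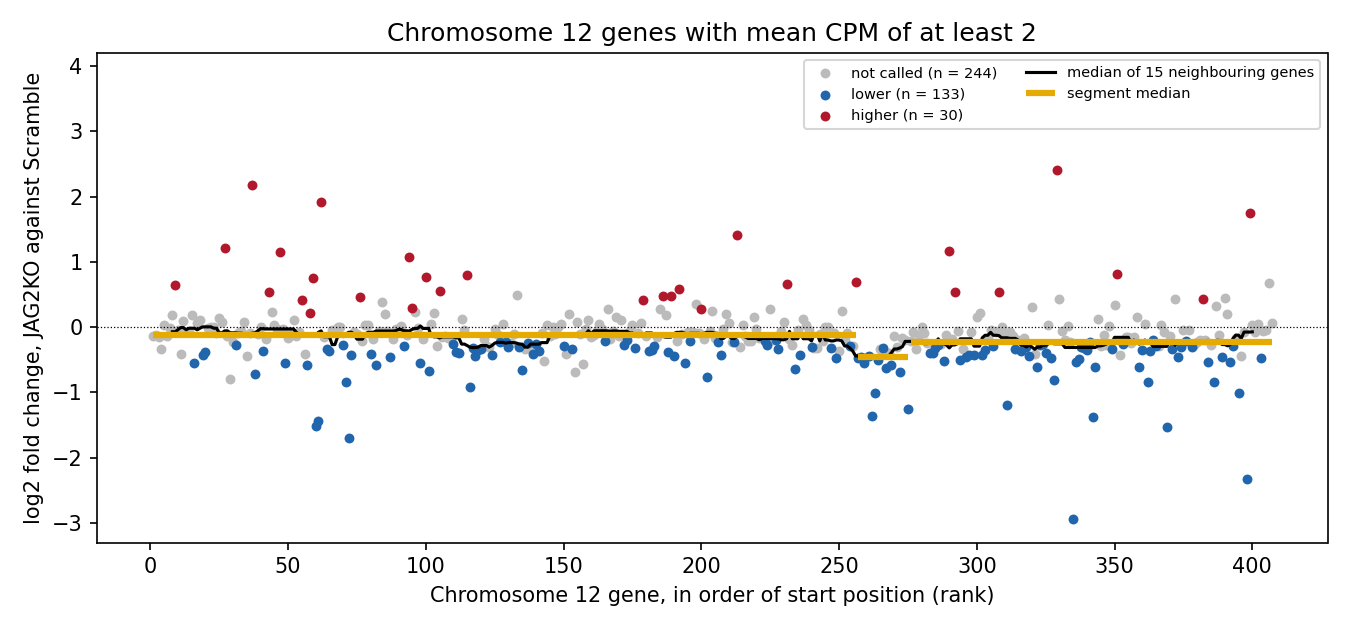
Log2 fold change of JAG2KO against Scramble for each of the 407 chromosome 12 genes (points; grey not called, blue lower, red higher), in order of start position. The black line is the median of 15 neighbouring genes and the gold bars are the 3 segment medians, -0.11, -0.46 and -0.22.

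When the partition was drawn from Scramble replicates 1 and 2 with JagKO2 and JagKO3 alone, it returned the same 3 segments. In the pair it had not used, JagKO4 against Scramble replicate 3, the median differences were -0.11, -0.44 and -0.22, with 163 of 256, 18 of 19 and 103 of 132 genes negative. The chromosome had been picked for its lower levels with this pair included, and the pair is 1 library against 1, so these values are a description and not independent support.

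The Arel1 to Angel1 segment had the lowest levels of the 3. Relative to the 6-library mean, its median log2 CPM was 0.18, 0.31 and 0.23 in the Scramble replicates and -0.20, -0.26 and -0.19 in JagKO2, JagKO3 and JagKO4. Over the 9 pairs of libraries the median difference lay between -0.57 and -0.42, and libraries of 1 group differed by at most 0.08. The log2 fold change was negative in all 19 genes. In 15 of them all JAG2KO libraries were below all Scramble libraries, as in 24.7% of all tested genes with at least 2 CPM, and in 4 the groups overlapped. Since the segment was drawn from these values, nothing is read from this count.

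Eif2b2, a subunit of the exchange factor that recharges the translation initiation factor eIF2, measured 67.3, 69.2 and 71.2 CPM in the Scramble replicates and 34.3, 36.0 and 32.9 CPM in JagKO2, JagKO3 and JagKO4. It fell by 1.01 on the log2 scale, with an SE of 0.07 and an adjusted p = 1.54e-06 by edgeR. The JAG2KO libraries lay close together at about the same distance below the Scramble libraries. Tmed10, a cargo receptor between the endoplasmic reticulum and the Golgi, had 242, 250 and 235.3 CPM in Scramble and 161.8, 158.5 and 149.8 CPM in JAG2KO (log2 fold change -0.63, adjusted p = 1.97e-05). Fcf1, which takes part in ribosomal RNA processing, had 48.5, 53.8 and 52.9 CPM against 37.9, 36.3 and 39.1 CPM (log2 fold change -0.45, adjusted p = 0.00112). The exons of Fcf1 and Arel1 overlap on opposite strands, so their counts may not be separate.

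Pgf, the placental growth factor of the VEGF family, had 10.8, 9.68 and 9.61 CPM in Scramble and 2.76, 3.62 and 5.24 CPM in JAG2KO (log2 fold change -1.37, adjusted p = 0.000681). JagKO2 was lowest and JagKO4 highest of the JAG2KO libraries, all of them under the Scramble range. Tgfb3, a ligand of the TGF-beta family, had 55.2, 55.5 and 49.3 CPM in Scramble and 36.5, 29.9 and 33.3 CPM in JAG2KO (log2 fold change -0.68, adjusted p = 0.000215).

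Dlst, a subunit of the 2-oxoglutarate dehydrogenase of the citric acid cycle, had 248, 259.7 and 255.2 CPM in Scramble and 180.0, 189.3 and 192.5 CPM in JAG2KO (log2 fold change -0.44, adjusted p = 0.00024). Angel1 had 5.07, 5.32 and 5.85 CPM against 2.22, 2.10 and 2.47 CPM (log2 fold change -1.26, adjusted p = 0.000691). In both genes the groups lay well apart. Jdp2, a repressor that pairs with AP-1 proteins, had 24.9, 27.9 and 30.1 CPM against 17.7, 19.5 and 18.6 CPM (log2 fold change -0.58, adjusted p = 0.00134). Ylpm1 (log2 fold change -0.55), the ubiquitin ligase gene Arel1 (-0.47), the kinase gene Nek9 (-0.32) and the mismatch repair gene Mlh3 (-0.51) also passed. The Mlh3 call was lost in the fits without Scramble replicate 1, Scramble replicate 2 and JagKO3 (adjusted p from 0.0741 to 0.128).

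The other 7 genes of the segment did not pass. Fos, the immediate-early AP-1 subunit and by far the most counted gene there, had 1105, 1294 and 1224 CPM in Scramble and 1056, 1054 and 652.3 CPM in JAG2KO (log2 fold change -0.39, adjusted p = 0.0711). JagKO2 and JagKO3 lay just under the Scramble range and JagKO4 far under it. The log2 fold changes of Prox2, Acyp1, Ttll5, Gpatch2l, Ift43 and Erg28 were -0.46, -0.33, -0.30, -0.20, -0.17 and -0.13. Tmed10, Jdp2, Tgfb3 and Gpatch2l share exon bases with unnamed gene models, and Prox2 with its antisense partner Prox2os.

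**Figure D4:**
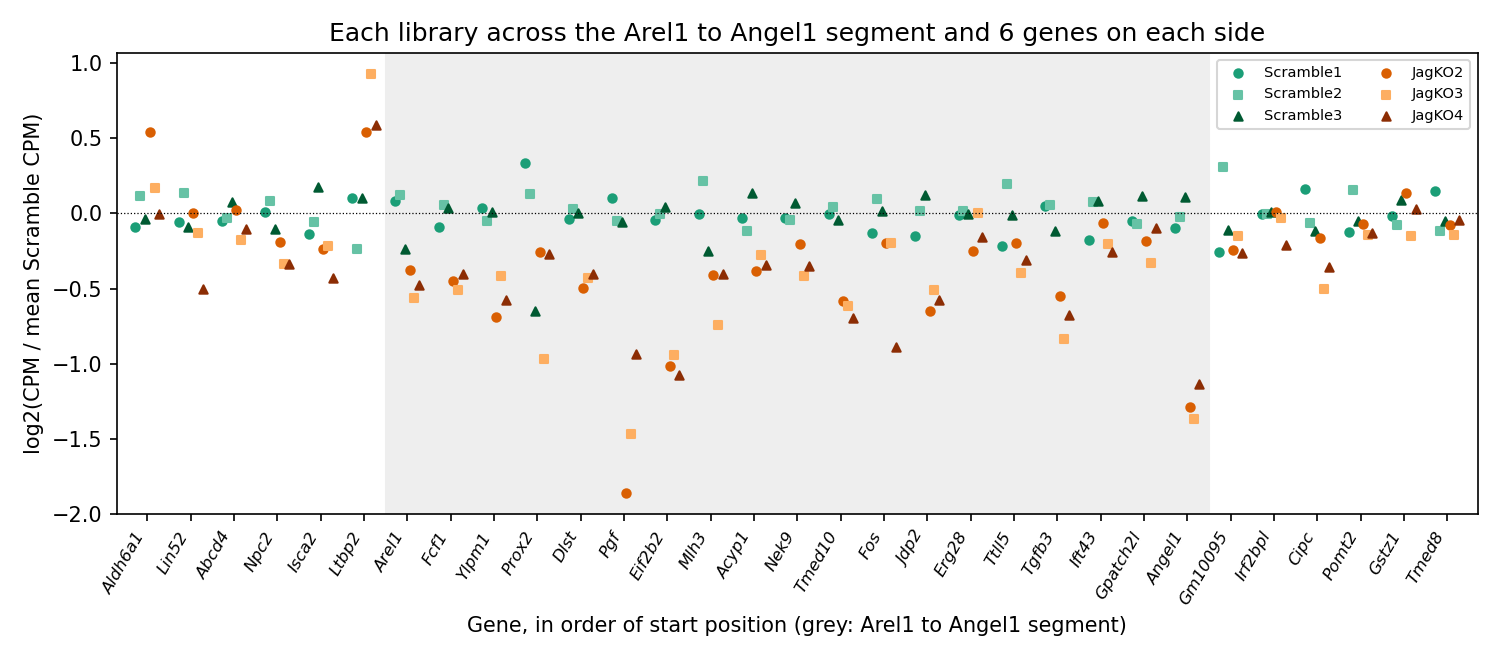
Log2 ratio of each library's CPM to the mean Scramble CPM for the 19 genes from Arel1 to Angel1 (grey background) and 6 genes on each side, in order of position. All JAG2KO libraries (orange) lie below all Scramble libraries (green) in 15 of the 19 genes, whereas Ltbp2, just before it, is higher in JAG2KO.

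The 5 genes before it had a median ratio of 0.873, with 1 lower and 1 higher, and the 5 after it a median ratio of 0.924, with 0 called. Ltbp2, a matrix protein related to the latent TGF-beta binding proteins and the last gene of the first segment, had 24.3, 19.2 and 24.3 CPM in Scramble and 32.9, 43.0 and 34.0 CPM in JAG2KO (log2 fold change 0.70, SE 0.12, adjusted p = 0.00168). All JAG2KO libraries were thus above all Scramble libraries for this gene, 1 gene before a run in which every value was negative. Among the first genes of the third segment, Gm10095 had a log2 fold change of -0.22, Irf2bpl -0.08, Cipc -0.34 and Gstz1 0.01.

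The bin from 50 to 60 Mb held another group of lower genes, beside others such as the Glrx5 to Hhipl1 run. Of its 37 genes, 33 were negative, 18 were lower (48.65%) and 1 higher, and the CPM of the groups did not overlap downward in 22. Of all tested genes with at least 2 CPM, 15.5% were lower and 24.7% had groups apart downward. Since the bin was singled out by these values, nothing is read from its counts. Egln3, the prolyl hydroxylase that marks hypoxia-inducible factors for breakdown, had 255.4, 251.4 and 237.6 CPM in Scramble and 126, 129.9 and 138.4 CPM in JAG2KO (log2 fold change -0.92, SE 0.06, adjusted p = 1.32e-06). The groups were far apart relative to the spread within each. Next to Egln3, the lower genes were Sptssa of sphingolipid synthesis (log2 fold change -0.31), Eapp (-0.44), the sorting nexin gene Snx6 (-0.35), the cofilin gene Cfl2 (-0.34), Srp54c (-0.42) and the proteasome subunit gene Psma6 (-0.23). Farther on, Mipol1 had a log2 fold change of -0.66, Trappc6b of vesicle tethering -0.42 and Mia2 -0.37. Several of these calls were lost when 1 library was left out, those of Sptssa in 3 such fits, Cfl2 in 3 and Psma6 in 5 (adjusted p up to 0.061, 0.11 and 0.148). Srp54c lost its call without Scramble replicate 1 (adjusted p = 0.0607). Mipol1 overlaps Prps1l3 on its own strand. Nfkbia, the NF-kappaB inhibitor gene in the same bin, had 1024, 1187 and 1180 CPM in Scramble and 1050, 1305 and 1151 CPM in JAG2KO. Its groups overlapped, with a log2 fold change of 0.05 (adjusted p = 0.728).

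Jag2 itself (ENSMUSG00000002799.6, minus strand, 112907819 to 112929776) was below the level required of the 407 genes. It had 1.52, 1.10 and 1.02 CPM in Scramble and 0.513, 0.798 and 1.11 CPM in JAG2KO, and the groups overlapped. At -0.58 on the log2 scale, with an SE of 0.39 and an adjusted p = 0.318 by edgeR, no difference in Jag2 RNA could be detected at these counts. Editing need not lower the RNA of a gene, and this level does not check the labels.

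The surroundings of Jag2 had a median close to that of the rest of the third segment. Within 2 Mb of it, 38 genes had a median ratio of 0.844, with 17 lower and 2 higher, and the 94 other genes of that segment had 0.858, with 37 lower and 5 higher. The 18 genes beyond Jag2 toward the chromosome end had a median ratio of 0.958, with 5 lower and 1 higher, whereas the 114 before it in the segment had 0.847, with 49 lower and 6 higher. Over the chromosome 32.68% of genes were lower and 7.371% higher, and over all tested genes with at least 2 CPM 15.5% and 14.3%. No difference between these sets was tested.

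Among the 10 nearest genes of the set, 4 fell and 6 did not pass. This stands beside 32.68% lower over the chromosome and 15.5% over all tested genes with at least 2 CPM, and nothing is read from it. Cep170b, a centrosomal protein gene, had 26.9, 30.9 and 28.2 CPM in Scramble and 16.6, 15.2 and 16.1 CPM in JAG2KO (log2 fold change -0.84, adjusted p = 6.2e-05). Cdca4, a cell division cycle associated gene, had 85.4, 86.8 and 91.2 CPM against 66.6, 63.6 and 61.5 CPM (log2 fold change -0.46, adjusted p = 0.000352). In both, the groups did not overlap. Btbd6 (log2 fold change -0.53) and the sorting protein gene Pacs2 (-0.28) passed with all libraries. The Btbd6 call was lost in the fits without Scramble replicate 2, Scramble replicate 3 and JagKO4 (adjusted p from 0.0553 to 0.0644), and Pacs2 without Scramble replicate 2 (adjusted p = 0.0572). Interspersed with them, the log2 fold changes of Nudt14, Ahnak2 and Brf1 were 0.45, 0.33 and 0.20, and those of Zbtb42, Mta1 and Clba1 were -0.27, -0.17 and -0.12.

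Gene groups were read from 11 lists of chromosome 12 and related genes, chosen with earlier results known. Together they held 90 of the 407 genes, of which 40 were lower (44.44%) and 8 higher (8.889%), with a median log2 fold change of -0.20. These counts, and those of each list, stand beside 32.68% lower and 7.371% higher over the chromosome and 15.5% and 14.3% over all tested genes with at least 2 CPM, and nothing particular to a list is read from them. Leaving out Scramble replicate 1, Scramble replicate 2 or JagKO4 took the 40 lower calls to 25, 24 and 26. Genes of quite different function stood among those that fell.

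In the Notch pathway, 4 listed genes other than Jag2 were measured on the chromosome, with 2 lower and 0 higher. Snw1, a splicing factor and nuclear partner of Notch, had 104.4, 106.4 and 99.98 CPM in Scramble and 94.5, 79.6 and 83.2 CPM in JAG2KO (log2 fold change -0.27, adjusted p = 0.0188). Its groups did not overlap, by a small margin. The Snw1 call was lost in 4 of the 6 fits without 1 library (adjusted p from 0.0687 to 0.0835). Snw1 shares exon bases with Slirp on the opposite strand. The Notch antagonist gene Numb (log2 fold change -0.31) and the shedding protease gene Adam17 (-0.13) did not pass, and Dlk1 had at most 0.254 CPM in any library.

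Of 3 listed oxygen-sensing and hypoxia genes on the chromosome, the 2 that reached 2 CPM were lower. The other, Pygl, had a mean of 1.45 CPM by library total and did not pass (log2 fold change -0.05). Beside Egln3, Hif1a, the oxygen-regulated subunit of the hypoxia-inducible factor, had 222.5, 222.8 and 201.7 CPM in Scramble and 155.3, 168.3 and 154.7 CPM in JAG2KO (log2 fold change -0.44, adjusted p = 0.000609). Its groups did not overlap. Hif1a shares exon bases with Gm49321 on its own strand and with the antisense gene model Gm15283.

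Of 14 genes of DNA replication and the cell cycle, 5 were lower (35.71%, near the chromosome's 32.68%) and 0 higher, with a median of -0.09. Rrm2, the small subunit of ribonucleotide reductase, had 164.7, 163.5 and 159.1 CPM in Scramble and 99.4, 114.4 and 113.9 CPM in JAG2KO (log2 fold change -0.57, adjusted p = 0.000103). Cinp, a replication and checkpoint protein gene, had 64.2, 64.1 and 65.0 CPM against 43.0, 45.2 and 38.2 CPM (log2 fold change -0.61, adjusted p = 0.000154). The Scramble libraries were nearly equal in both genes and the JAG2KO libraries lay well below. Cdca4, Mlh3 and Max, the partner of Myc, made up the other lower genes. Max lost its call in 4 of the fits without 1 library (adjusted p from 0.0516 to 0.147).

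Among 6 proteasome and ribosome subunits 4 were lower and 0 higher (median -0.21). The proteasome ATPase gene Psmc1 had 212.4, 226.5 and 212.9 CPM in Scramble and 156.6, 171.5 and 183 CPM in JAG2KO (log2 fold change -0.35, adjusted p = 0.00336). Its groups did not overlap. Psma3 (log2 fold change -0.19), Psma6 (-0.23) and the ribosomal protein gene Rps29 (-0.29) passed with all libraries; with 1 left out Psma3 and Psma6 each lost the call in 5 of 6 fits and Rps29 in 4 of 6 (adjusted p up to 0.101, 0.148 and 0.155).

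Of 12 chaperone and endoplasmic reticulum genes, 6 were lower and 0 higher (median -0.27). Besides Tmed10 and Trappc6b, Ahsa1, an activator of the chaperone HSP90, had 228.6, 241.6 and 231.8 CPM in Scramble and 167.7, 181.7 and 181.3 CPM in JAG2KO (log2 fold change -0.40, adjusted p = 0.00062). Pdia6, a disulfide isomerase, had 855.8, 947.8 and 813.3 CPM against 656, 714.8 and 667.5 CPM (log2 fold change -0.36, adjusted p = 0.00277). In both, every JAG2KO library was below every Scramble library. Bag5 and Sec23a passed with all libraries, and lost the call in 4 and 5 of the 6 fits without 1 library. Ahsa1 overlaps a gene model on its own strand.

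Among 11 genes of interferon and innate immunity, 8 were lower and 0 higher (72.73% lower, against 32.68% over the chromosome and 15.5% over all tested genes with at least 2 CPM; median -0.34). Rsad2, which encodes the antiviral enzyme viperin, had 15.1, 11.95 and 7.73 CPM in Scramble and 4.76, 3.88 and 3.51 CPM in JAG2KO (log2 fold change -1.52, adjusted p = 0.000563). Its neighbour Cmpk2, a mitochondrial nucleotide kinase also induced by interferon, had 11.9, 12.2 and 10.3 CPM against 5.59, 3.54 and 3.53 CPM (log2 fold change -1.44, adjusted p = 0.000235). The pair fell by like amounts, with Scramble replicate 3 the lowest Scramble library in each. Of their promoters, that of Rsad2 holds a GAAANNGAAA match and that of Cmpk2 does not. Ddx24 (log2 fold change -0.40), Wars (-0.34) and Rnaseh1 (-0.34) also fell. Ifi27, Ifi27l2a and Traf3 were called with all libraries but lost the call in at least 4 of the 6 fits without 1 library.

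Of 16 kinase and growth signalling genes, 7 were lower and 0 higher (median -0.20). Akt1, the survival kinase downstream of PI3K, had 469.1, 485.3 and 565.3 CPM in Scramble and 383.3, 329.3 and 332.8 CPM in JAG2KO (log2 fold change -0.54, adjusted p = 0.000703). Asap2, a GTPase-activating protein of Arf, had 84.9, 84.1 and 99.7 CPM against 59.0, 62.3 and 63.1 CPM (log2 fold change -0.54, adjusted p = 0.000392). The groups lay apart in both genes. Map4k5, Traf3, Ppp2r5c and Mark3 were called with all libraries and lost the call in 9, 8, 5 and 2 of the alternative settings. Asap2 overlaps Itgb1bp1 on the opposite strand and gene models on its own.

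Transcription factor and matrix genes went both ways. Of 18 early response and differentiation factors 4 were higher and 3 lower (median -0.07). Id2, an inhibitor of helix-loop-helix factors, had 20.5, 16.5 and 14.6 CPM in Scramble and 26.2, 27.9 and 32.9 CPM in JAG2KO (log2 fold change 0.75, adjusted p = 0.00145). Six4, a homeobox gene, rose by a log2 fold change of 0.47, and Sox11 and Osr1 are given below. Twist1, a mesenchymal helix-loop-helix factor, had 83.0, 69.0 and 100 CPM against 61.1, 64.6 and 58.1 CPM (log2 fold change -0.46, adjusted p = 0.0112) and lost its call without JagKO4 (adjusted p = 0.0515). Etv1 was called with all libraries (log2 fold change -0.29) and lost its call in 4 of 6 fits without 1 library.

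Of 8 TGF-beta, matrix and adhesion genes, 2 were higher and 4 lower (median -0.17). Smoc1, a calcium-binding matrix protein, had 15.97, 16.7 and 17.5 CPM in Scramble and 26.6, 27.4 and 25.5 CPM in JAG2KO (log2 fold change 0.67, adjusted p = 0.000264). Lamb1, a laminin chain, had 752.9, 856.6 and 783.6 CPM against 686.6, 552.6 and 542.5 CPM (log2 fold change -0.43, adjusted p = 0.00479). One rose and the other fell, in each case with no overlap between the groups. Actn1 (log2 fold change -0.21) was called with all libraries and lost its call in 4 of 6 fits without 1 library.

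Both clusters with shared control had few members above 2 CPM. In the imprinted Dlk1-Dio3 domain 1 of 8 listed genes was measured at that level. Rian, a noncoding RNA of the domain, had 1.70, 1.28 and 1.73 CPM in Scramble and 2.86, 2.98 and 2.47 CPM in JAG2KO (log2 fold change 0.82, adjusted p = 0.0362). The groups did not overlap, but the call was lost in every fit without 1 library and without the filter on low counts (adjusted p from 0.0568 to 0.126). Small noncoding gene models lie within Rian on its own strand. In the serpin A cluster, 2 of 23 genes were measured at that level. Serpina3g, a cytosolic inhibitor of proteases, had 1.81, 2.68 and 2.44 CPM in Scramble and 15.9, 12.7 and 8.08 CPM in JAG2KO (log2 fold change 2.40, adjusted p = 3.53e-05). Serpina3n had 4.42, 4.04 and 10.4 CPM against 11.8, 6.46 and 7.18 CPM and did not pass (adjusted p = 0.39). Serpina3 genes are close paralogs, between which reads may be shared.

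The largest decreases of the chromosome were spread over several of its bins. Bdkrb2, the bradykinin B2 receptor gene, had 8.43, 9.68 and 9.51 CPM in Scramble and 1.05, 0.905 and 1.62 CPM in JAG2KO (log2 fold change -2.94, SE 0.23, adjusted p = 3.69e-06). Tmem121, which lies near the chromosome end beyond Jag2, had 4.19, 3.33 and 4.32 CPM against 0.919, 0.905 and 0.531 CPM (log2 fold change -2.33). Both genes were several-fold lower in every JAG2KO library. Fam110c had 25.6, 30.9 and 22.1 CPM in Scramble and 7.19, 8.75 and 8.38 CPM in JAG2KO (log2 fold change -1.69). Ccdc85c had 18.1, 17.9 and 21.9 CPM against 7.43, 7.50 and 7.36 CPM (log2 fold change -1.38). Fbln5, a matrix protein of elastic fibres, had 10.2, 8.09 and 6.26 CPM against 3.78, 3.804 and 3.16 CPM (log2 fold change -1.19). None of these 5 genes lies in the Arel1 to Angel1 segment, which held Pgf, Angel1 and Eif2b2 of the 10 largest decreases among named genes.

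The largest increases were likewise spread along the chromosome. Greb1, known as an estrogen-responsive gene, had 0.997, 1.28 and 0.661 CPM in Scramble and 3.51, 4.87 and 4.94 CPM in JAG2KO (log2 fold change 2.17). Sox11, a neural and mesenchymal developmental factor, had 1.59, 1.90 and 1.70 CPM against 5.86, 7.10 and 6.76 CPM (log2 fold change 1.92). In both, every JAG2KO library was above every Scramble library. Osr1, a zinc finger factor of mesenchyme, had 10.99, 14.7 and 10.6 CPM in Scramble and 38.1, 22.4 and 23.7 CPM in JAG2KO (log2 fold change 1.21), with JagKO2 well above the others. Plek2, a pleckstrin of the actin cytoskeleton, rose by a log2 fold change of 1.42, the endocytic adaptor gene Ston2 by 1.17, the kinase-anchoring protein gene Akap6 by 0.80 and Lrrn3 by 0.77. Ston2 and Lrrn3 lost their calls in 2 and 3 of the 6 fits without 1 library (adjusted p up to 0.0731 and 0.065). Greb1, Sox11, Ston2 and Rian reached the mean of 2 CPM only through JAG2KO, and Bdkrb2 and Tmem121 only through Scramble. In all, 15 of the 407 genes had a mean under 2 CPM in 1 group, 6 of them called higher and 5 lower, so that they passed the limit through their higher group.

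Ighm, the constant region gene of immunoglobulin M, which B cells express, rose from 6.23, 5.60 and 4.30 CPM in Scramble to 24.5, 17.1 and 12.5 CPM in JAG2KO (log2 fold change 1.74, adjusted p = 0.000182). The 14 B and plasma cell markers, Ighm among them, summed to 5.14 to 9.90 CPM in Scramble and 20.3 to 27.3 CPM in JAG2KO, and 2 of the 5 tested were higher. Most of that sum is Ighm itself: without it the sums were 3.67, 2.22 and 0.839 CPM in Scramble and 1.22, 3.14 and 14.8 CPM in JAG2KO, and the groups overlapped. The B cell receptor gene Cd79a had 0.34, 0.459 and 0.738 CPM in Scramble and 0.27, 2.26 and 2.65 CPM in JAG2KO and did not pass. Igha, the other marker called higher, had 0.023, 0 and 0.025 CPM in Scramble. In JagKO2, JagKO3 and JagKO4 it had 0.54, 0.585 and 0.392 CPM, from 20, 22 and 17 counts. The part of B cells in the Ighm level was not tested.

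**Figure D5:**
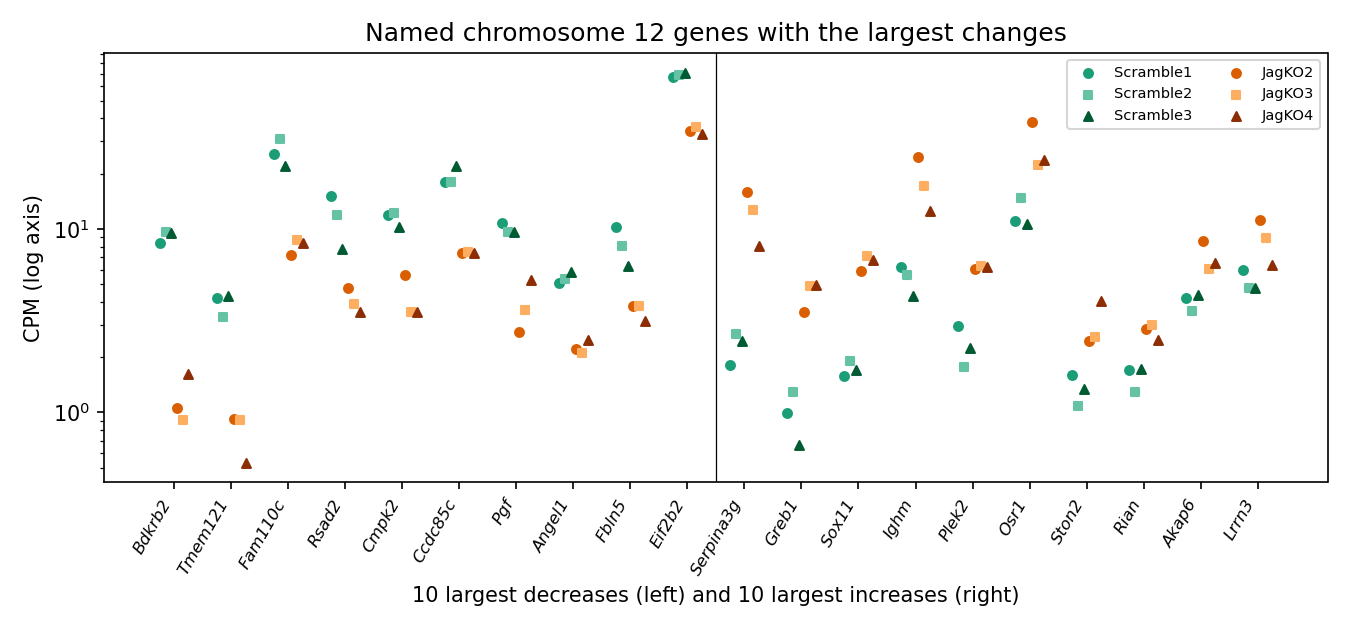
CPM of each library (log axis) for the named genes with the largest decreases (left of the line) and increases (right), 10 each, among called chromosome 12 genes whose groups do not overlap. By mean fold, Bdkrb2 has the largest difference on the left and Serpina3g on the right.

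Of the 5 genes with the most counts on the chromosome, 1 passed. Odc1, the rate-limiting enzyme of polyamine synthesis, had 1107, 1115 and 1327 CPM in Scramble and 1382, 2104 and 1697 CPM in JAG2KO (log2 fold change 0.55, adjusted p = 0.00759). Its groups did not overlap, and JagKO3 was the highest. Hsp90aa1, the inducible HSP90 chaperone, had 2127, 2228 and 2096 CPM against 1761, 2007 and 2029 CPM (log2 fold change -0.15, adjusted p = 0.11). Rps7 (log2 fold change -0.15), the small GTPase gene Rhob (-0.02) and Nfkbia did not pass.

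The limit of 2 CPM set which genes were counted. Just above it lay Gm17056, which was higher (mean of 2.08 CPM by library total, log2 fold change 1.07, adjusted p = 0.0102), Rian (2.17 CPM) and Gm4294 (2.19 CPM, log2 fold change -0.09). Just below lay Gm29361 (1.96 CPM, log2 fold change -0.27), Gm19144 (1.95 CPM, 0.36) and Gm5786 (1.92 CPM, -0.75), of which 0 passed. Of the 2061 chromosome 12 rows under the limit, 1290 had no count in any library and 180 were tested, with 9 higher, 8 lower and a median of -0.08. The ends of the set, Rab10os (log2 fold change -0.14) and Sp4 (0.06), did not pass.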

How the data were processed

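PolyA RNA of 6 libraries of sorted LLC tumour cells was compared, 3 Scramble and 3 JAG2KO. The authors deposited whole-number counts per versioned Ensembl gene ID; per the submitters' processing notes the tools were STAR 2.7.7a and HTSeq 0.11.2. Build, annotation, strand setting and the handling of multiply mapped reads were not given in the sources used here. Overlapping genes, antisense genes and paralogs can share or lose reads. Scramble columns carry the titles' numbers; JAG2KO columns are numbered 2 to 4 and the titles 1 to 3, so they were used as libraries of that group without a replicate number.

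Of the IDs, 55154 matched GENCODE M21 (GRCm38) by stable ID and 54587 also by version; 180 did not. Counts were tested on the whole table in R 4.3.3 with edgeR 4.0.16 (filterByExpr, minimum count 10 and total 15; TMM factors; quasi-likelihood F test; Benjamini-Hochberg over 16049 genes; called under 0.05). Printed CPM use TMM-scaled totals; 3 counts are worth 0.068 to 0.0811 CPM, which limits low genes. Over genes with at least 40 counts in a pair, chi-square per degree of freedom was 13.2 to 34.0 between libraries of a group, so none was treated as a repeat. The procedures were tested on simulated data. Segments needed at least 10 genes, with a penalty of 2 times the variance of neighbour differences times ln(n).

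The members and lists were chosen with earlier results of these data known. Genes named by rule are Jag2; the 5 nearest members on each side; the 10 largest called changes each way without group overlap, gene models left out; up to 3 called members of each list with the smallest p; segment ends; 3 genes on each side of 2 CPM; and the 5 most counted. All genes of the Arel1 to Angel1 segment, its neighbours, genes of the 50 to 60 Mb bin and further list members were named after their values were seen. Alternatives were RLE factors, library totals, TMM outside chromosome 12, 2 other count filters, DESeq2 1.42.0, limma-voom (limma 3.58.1), CPM limits of 1 and 10, other bins, windows and segment settings, and leaving out each library. Some items that the rule names are not reported here.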

Additional observations from a re-analysis of the deposited data

How the results depend on the processing

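The median log2 fold change of the 407 genes lay between -0.18 and -0.15 under every normalization, filter, test and left-out library tried, and these scalings moved the median of all genes by at most 0.02. Leaving out 1 library gave 83 to 140 lower and 23 to 27 higher genes. It gave 36 to 65 lower genes in the first segment, 11 to 14 in the second and 36 to 61 in the third, with segment medians of -0.12 to -0.10, -0.51 to -0.40 and -0.27 to -0.18, and 24 to 42 lower list members. The number of segments was 1 with a doubled penalty, 5 without the limit on fold changes and 3 to 5 with 1 library left out; the cause was not tested. Among genes not called, leaving out 1 library turned the sign within ranges of -0.0374 to 0.1208 for Nfkbia, -0.3624 to 0.0532 for Clba1, -0.1288 to 0.097 for Rhob, -0.2753 to 0.0936 for Gm4294 and -0.462 to 0.026 for Gm29361. For the genes named by rule, 804 values under alternatives kept their direction and their side of the threshold, 32 lost the call, 2 gained it and 7 turned.

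No paired analysis was possible because the JAG2KO columns do not carry the replicate numbers of the titles; the fit with a replicate block was not run. With 3 libraries a group, without counts of DNA and with the build of the counting not given, small differences of single genes and the exact ends of segments are the least certain values.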
